A study of Mus musculus with 11 samples.

Results

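At the thresholds used here, 5 of the 22337 protein-coding genes in the deposited tables were largely restricted to spermatogonia of 6-day-old mice. Their levels were much lower in spermatogonia of 8-month-old and 15-month-old mice. These were *Plekhh3*, *Tmc6*, *Kcnc2*, *Lhx1* and *Sez6*. A gene was taken when it reached at least 2 RPKM in each of the 4 libraries from 6-day mice and when its mean over these 4 libraries was at least 8 times the highest value in any of the 7 libraries from the later ages. RPKM counts the reads on a gene per 1 kb of its exons in each library, as a share of all reads on genes, so that levels can be set side by side between genes and libraries. A level of at least 2 RPKM in each 6-day library was reached by 8148 protein-coding genes. These 5 genes were chosen by their RPKM at 6 days against the later ages, and this contrast is therefore described and not tested. The difference between KIT- and KIT+ cells was not itself a criterion, but the floor and the mean used the 6-day values of both. *Tmc6* was not chosen when either 6-day KIT- library was left out.

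All cells were sorted from B6;CBA-Tg(Pou5f1-EGFP)2Mnn/J mice, which carry a green fluorescent protein driven by regulatory sequence of *Pou5f1*, the gene for the germline and pluripotency factor OCT4. Every group therefore shared the transgene and the Oct4-GFP+ gate, and the groups differed in age and in surface KIT, the receptor for stem cell factor that spermatogonia acquire as they start to differentiate. There were 2 libraries each of KIT- and KIT+ cells at 6 days, 2 of KIT- cells and 1 of KIT+ cells at 8 months, and 2 each of KIT- and KIT+ cells at 15 months. The labels give these ages, while the series' design text gives a range of months for both adult ages. The sorts were made in independent experiments, and whether a library pooled several animals is not given in the sources used here, so that the p-values measure the spread between these libraries. *Kit* itself followed the gate at 6 days, with 3.36 and 3.37 RPKM in KIT- cells against 38.3 and 35.8 RPKM in KIT+ cells, and *Pou5f1* was present in all 11 libraries (3.88 to 70.2 RPKM). The libraries held between 12238328 and 76756540 reads on genes, and 10 markers of spermatogonia summed to 910 to 1070 RPKM at 6 days and to 875 to 1118 RPKM later. Among other cell types, 15 Sertoli cell markers summed to 15.8 to 34.5 RPKM at 6 days and 7.27 to 72.1 RPKM later. Of these, 5 were at 1 RPKM or more in every 6-day library and 7 were under 1 RPKM in all of them. Markers of Leydig, stromal, endothelial, macrophage and erythroid cells summed to at most 3.46, 9.86, 4.59, 3.73 and 0.654 RPKM at 6 days. At 1 RPKM or more in every 6-day library were 1 of 7 Leydig, 2 of 11 stromal and 1 of 7 endothelial markers. For macrophage and erythroid cells this held for 0 of 9 and 0 of 6 markers. *Amh*, a defining gene of immature Sertoli cells, was picked from the 15 markers after its values were seen. It had an age pattern like that of the 5 genes. Its levels were 2.95 and 4.27 RPKM in KIT- and 3.03 and 1.52 RPKM in KIT+ cells at 6 days, and at most 0.40 RPKM later. The sum over the 15 markers did not follow this pattern. It was 17.9 and 21.8 RPKM in KIT- and 10.9 RPKM in KIT+ cells at 8 months. At 15 months it was 36.1 and 72.1 RPKM in KIT- and 7.27 and 20.2 RPKM in KIT+ cells. The part of such cells in the values below was not tested, and in sorted bulk cells fewer cells of a type and less RNA per cell cannot be told apart.

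The first spermatogonia of the mouse testis arise from gonocytes in the days after birth and include both the founders of the stem cell pool and cells that enter differentiation directly. In the adult, undifferentiated spermatogonia depend on glial cell line-derived neurotrophic factor (GDNF), which Sertoli cells secrete and which signals through the receptors GFRA1 and RET, and on fibroblast growth factors. Of the 5 genes, *Lhx1* encodes a LIM-homeodomain transcription factor that is known as a GDNF-responsive gene in cultured spermatogonial stem cells. *Plekhh3* encodes a protein with pleckstrin homology, MyTH4 and FERM domains. *Tmc6* encodes a transmembrane channel-like protein, also called EVER1, that forms a complex with TMC8 in the endoplasmic reticulum. *Kcnc2* encodes the voltage-gated potassium channel Kv3.2 of fast-spiking neurons, and *Sez6* a membrane protein with CUB and sushi domains that is best known from neurons.

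Of the 5 genes, 4 lie on the same chromosome, and this was not tested. *Plekhh3*, *Tmc6*, *Lhx1* and *Sez6* all lie on chromosome 11, which holds 7.40% of the protein-coding genes in the tables, and *Kcnc2* lies on chromosome 10. In the mm9 annotation used with these data, *Sez6* (ENSMUSG00000000632) spans chr11:77744302-77792550 on the plus strand, *Lhx1* (ENSMUSG00000018698) chr11:84331479-84338923 on the minus strand, *Plekhh3* (ENSMUSG00000035172) chr11:101023993-101032665 on the minus strand and *Tmc6* (ENSMUSG00000025572) chr11:117627302-117643512 on the minus strand. *Kcnc2* (ENSMUSG00000035681) spans chr10:111708179-111903360 on the plus strand. The 4 genes on chromosome 11 are far apart and are not neighbours of each other. Their exons add up to 3582 bases in *Plekhh3*, 4091 in *Tmc6*, 4121 in *Lhx1*, 5779 in *Sez6* and 6196 in *Kcnc2*, against a median of 2739 bases over all protein-coding genes and 3856.5 bases over the 8148 genes that reached the floor at 6 days.

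Since the 5 genes share a pattern over age, their promoters were set side by side. RefSeq windows were matched by symbol for 4 of them, *Plekhh3*, *Tmc6*, *Kcnc2* and *Lhx1*. The 250 bases before the most upstream start of each are given below from 5′ to 3′ on the gene's own strand, with the build GRCm38.p6. The windows are chr11:84525535-84525784 (minus strand) for *Lhx1*, chr11:101171373-101171622 (minus strand) for *Plekhh3*, chr11:117780693-117780942 (minus strand) for *Tmc6* and chr10:112269767-112270016 (plus strand) for *Kcnc2*. Capitals mark every match, on either strand, to 1 of 8 motifs that were searched, namely the E-box CACGTG, the GC box core GGGCGG, the TATA box TATAAA, the CCAAT box, the E2F-type site TTTGGCGC, the cAMP response element TGACGTCA, the GATA-type site AGATAA and the SOX-type site ACAATG.
Lhx1: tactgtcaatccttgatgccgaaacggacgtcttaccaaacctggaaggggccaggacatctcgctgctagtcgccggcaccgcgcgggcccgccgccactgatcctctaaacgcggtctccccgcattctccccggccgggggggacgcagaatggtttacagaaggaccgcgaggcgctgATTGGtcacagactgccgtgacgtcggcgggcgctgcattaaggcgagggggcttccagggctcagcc
Plekhh3: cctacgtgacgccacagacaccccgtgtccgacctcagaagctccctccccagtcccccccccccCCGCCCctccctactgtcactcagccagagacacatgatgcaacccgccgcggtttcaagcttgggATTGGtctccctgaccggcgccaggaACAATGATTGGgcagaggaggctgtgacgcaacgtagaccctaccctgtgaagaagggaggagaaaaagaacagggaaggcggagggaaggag
Tmc6: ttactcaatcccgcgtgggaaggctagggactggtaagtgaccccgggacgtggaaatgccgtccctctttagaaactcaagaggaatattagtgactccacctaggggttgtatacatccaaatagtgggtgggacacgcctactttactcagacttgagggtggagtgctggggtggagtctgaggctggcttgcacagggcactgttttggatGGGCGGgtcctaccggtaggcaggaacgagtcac
Kcnc2: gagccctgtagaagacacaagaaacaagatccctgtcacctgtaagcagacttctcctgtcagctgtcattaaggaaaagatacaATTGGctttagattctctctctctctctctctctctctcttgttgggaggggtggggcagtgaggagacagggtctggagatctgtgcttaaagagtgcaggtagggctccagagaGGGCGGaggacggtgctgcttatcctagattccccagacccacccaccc

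A CCAAT box was present in the *Lhx1*, *Plekhh3* and *Kcnc2* windows, on the reverse strand in each, and was absent from that of *Tmc6*. Over the 17491 protein-coding genes with such a window, 36.5% held this motif. GGGCGG, the core of the GC box, was present in *Plekhh3*, *Tmc6* and *Kcnc2* and in 42.7% of all windows. ACAATG was present in *Plekhh3* alone, directly beside a CCAAT box, and in 9.57% of all windows. The other 5 motifs had no match in these 4 windows, and were held by 6.65% (CACGTG), 12.4% (TATAAA), 0.532% (TTTGGCGC), 1.98% (TGACGTCA) and 9.10% (AGATAA) of all windows. No motif was thus shared by all 4 promoters. They also differed in base composition. The *Lhx1* window was rich in CpG, with 0.99 of the number that its C and G content gives, and lay above 91.8% of all windows. That of *Kcnc2* was poor in CpG at 0.117, above 14.4% of windows, and *Plekhh3* and *Tmc6* at 0.546 and 0.502 lay near the median of 0.537.

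*Lhx1* had the largest contrast with the later ages. It was measured at 5.93 and 5.55 RPKM in KIT- cells and at 3.48 and 4.2 RPKM in KIT+ cells at 6 days. At 8 months it was at 0.187 and 0.0749 RPKM in KIT- cells and 0.195 RPKM in KIT+ cells, and at 15 months at 0.0105 and 0.130 RPKM in KIT- cells and 0.158 and 0.0487 RPKM in KIT+ cells. The mean over the 6-day libraries (4.79 ± 1.15, SD, n = 4) was 24.5 times the highest later value, which came from the 8-month KIT+ library. These levels rested on 439 to 700 reads in each 6-day library and on 2 to 39 reads in each later library. The later levels were 0.220% to 4.08% of the 6-day mean, and no later group reached the range of either 6-day group.

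*Plekhh3* was the most abundant of the 5 genes at 6 days. Its levels were 17.3 and 12.95 RPKM in KIT- and 8.33 and 8.86 RPKM in KIT+ cells at 6 days. They were 0.388 and 0.185 RPKM in KIT- cells and 0.546 RPKM in KIT+ cells at 8 months, and 0.127 and 0.0665 RPKM in KIT- cells and 0.802 and 0.429 RPKM in KIT+ cells at 15 months. The 6-day mean of 11.9 ± 4.19 RPKM (SD, n = 4) was 14.8 times the highest later library, a 15-month KIT+ library. The order of the groups turned over with age, since KIT- cells held more than KIT+ cells at 6 days and less at both later ages, with no overlap between the libraries at any of the 3 ages.

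*Kcnc2* was measured at 7.59 and 7.83 RPKM in KIT- cells and at 3.28 and 4.71 RPKM in KIT+ cells at 6 days. It was at 0.211 and 0.582 RPKM in KIT- and at 0.117 RPKM in KIT+ cells at 8 months, and at 0.397 and 0.495 RPKM in KIT- and 0.232 and 0.0189 RPKM in KIT+ cells at 15 months. The 6-day mean (5.85 ± 2.22, SD, n = 4) was 10.05 times the highest later value, in an 8-month KIT- library. KIT- cells held the higher mean at each age.

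*Tmc6* kept the most of its level after 6 days. It was at 13.6 and 10.4 RPKM in KIT- cells and at 6.56 and 6.27 RPKM in KIT+ cells at 6 days. The 8-month libraries had 1.12 and 0.897 RPKM (KIT-) and 0.407 RPKM (KIT+), and the 15-month libraries 1.02 and 0.895 RPKM (KIT-) and 0.677 and 0.525 RPKM (KIT+). Later levels were therefore 4.42% to 12.2% of the 6-day mean of 9.20 ± 3.46 RPKM (SD, n = 4), and the ratio to the highest later value, 8.22, was the lowest among the 5 genes. As with *Kcnc2*, KIT- cells were above KIT+ cells without overlap at each age. At 8 months, with 1 KIT+ library, this holds for 44.9% of all genes tested, and the opposite order for 38.9%.

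*Sez6* was the least abundant of the 5 genes at 6 days. It was at 3.10 and 2.38 RPKM in KIT- cells and at 3.24 and 3.60 RPKM in KIT+ cells at 6 days. At 8 months it was at 0.198 and 0.125 RPKM in KIT- and 0.113 RPKM in KIT+ cells, and at 15 months at 0.0307 and 0.139 RPKM in KIT- and 0.152 and 0.343 RPKM in KIT+ cells. The 6-day mean of 3.08 ± 0.515 RPKM (SD, n = 4) was 8.99 times the highest later value, in a 15-month KIT+ library. With 353 to 702 reads in each 6-day library and 7 to 152 reads in each later one, its later levels rested on few reads.

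**Figure D1:**
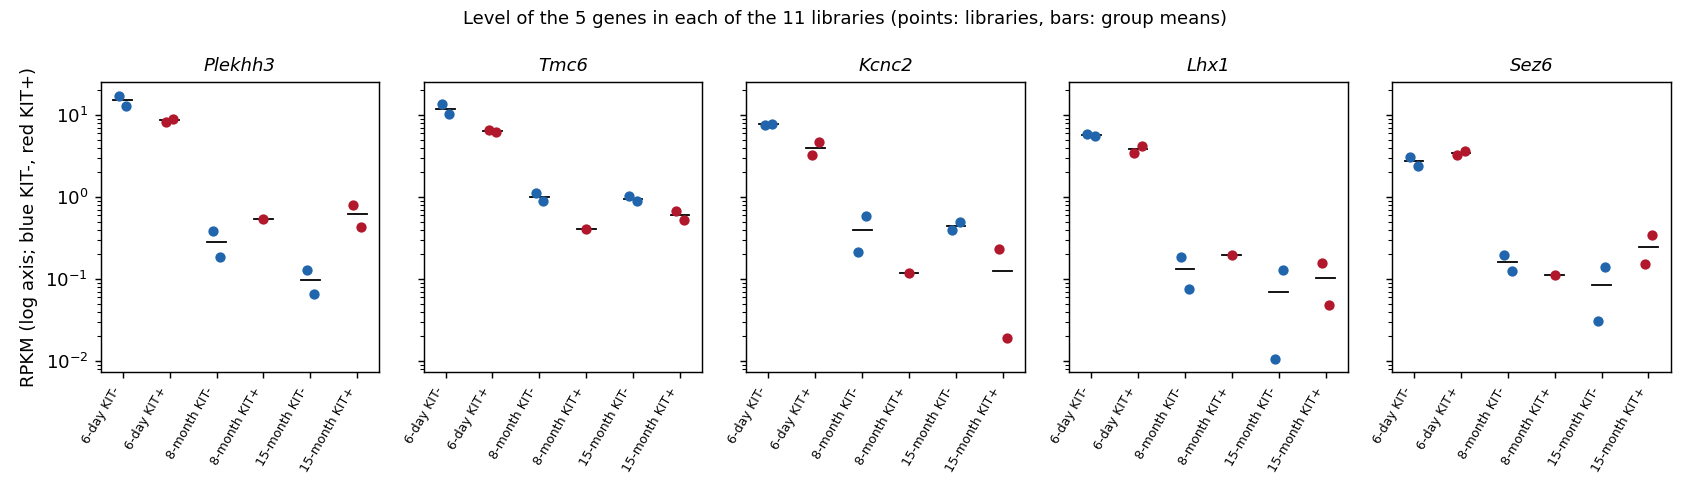
RPKM of *Plekhh3*, *Tmc6*, *Kcnc2*, *Lhx1* and *Sez6* on a log axis in the 11 libraries by group, with KIT- libraries in blue, KIT+ libraries in red and a bar at each group mean. All 6-day points lie above 2 RPKM and all later points at or below 1.12 RPKM, and the later points spread over a wider range on this scale than the 6-day points.

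None of the 5 genes was abundant among the genes expressed at 6 days. The 8148 genes at the floor had a median of 11.2 RPKM over the 6-day libraries, and *Plekhh3* and *Tmc6* lay above 52.3% and 42.9% of them, *Kcnc2*, *Lhx1* and *Sez6* above 25.8%, 18.5% and 5.42%. The ratio that chose them was far from usual. Over the 8148 genes the median ratio was 0.708, and 122 genes had a ratio of at least 2 and 30 a ratio of at least 4. Since a mean is set against a maximum, a gene that is level over age can have a ratio below 1. Just inside the threshold of 8 were *Kcnc2* (10.05), *Sez6* (8.99) and *Tmc6* (8.22). Just outside it were *Rhbdl3* (7.74), a rhomboid-like protein gene, *Etv4* (7.40), an ETS transcription factor gene, and *Spry4* (6.93), an inhibitor of receptor tyrosine kinase signalling. *Rhbdl3* and *Etv4* also lie on chromosome 11. Of the 30 genes with a ratio of at least 4, 7 lie there, beside 7.40% of all protein-coding genes. These already include *Rhbdl3*, *Etv4* and 4 of the 5 genes. The list depended on the scaling of the libraries: with median-of-ratios factors in place of the deposited scaling the rule found 9 genes, the same 5 and *Etv4*, *Nefm*, *Rhbdl3* and *Spry4*.

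The KIT+ to KIT- comparison at 6 days asks whether these genes belong to the undifferentiated or to the differentiating fraction of the young testis. *Plekhh3*, *Tmc6*, *Kcnc2* and *Lhx1* had lower values in both KIT+ libraries than in either KIT- library, and *Sez6* had higher values in both. Mean RPKM in KIT- cells was 1.76 times that in KIT+ cells for *Plekhh3* (15.1 ± 3.09 against 8.59 ± 0.375, SD, n = 2 each), 1.87 times for *Tmc6* (11.98 ± 2.22 against 6.42 ± 0.204) and 1.93 times for *Kcnc2* (7.71 ± 0.167 against 3.996 ± 1.01). It was 1.49 times for *Lhx1* (5.74 ± 0.268 against 3.84 ± 0.510) and 0.80 times for *Sez6* (2.74 ± 0.515 against 3.42 ± 0.252). Lower values in KIT+ without overlap were found in 20.3% of the 18412 genes tested and higher values in 21.6%, so that with 2 libraries a side the separation is common among all genes.

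None of these differences passed the test. With limma on log2(RPKM + 1), 0 of the 5 genes were called at a Benjamini-Hochberg adjusted p of 0.05 with a change of 1.5-fold or more, against 0.0434% of all genes tested (8 of 18412). Before adjustment, 4 of the 5 genes passed 0.05, against 10.4% of all genes. The rule used the 6-day values of both fractions, so this share is not independent of the choice. The difference of KIT+ minus KIT- cells in log2(RPKM + 1) was -0.82 for *Kcnc2* (SE 0.22, limma adjusted p = 0.24), -0.80 for *Tmc6* (SE 0.18, limma adjusted p = 0.19) and -0.74 for *Plekhh3* (SE 0.21, limma adjusted p = 0.27). It was -0.48 for *Lhx1* (SE 0.16, limma adjusted p = 0.35) and 0.25 for *Sez6* (SE 0.16, limma adjusted p = 0.69). The 95% intervals ran from -1.32 to -0.31 for *Kcnc2*, from -1.22 to -0.37 for *Tmc6*, from -1.22 to -0.25 for *Plekhh3*, from -0.86 to -0.11 for *Lhx1* and from -0.13 to 0.63 for *Sez6*. *Tmc6* had the lowest p of the 5 and ranked 254th among the 18412 genes. With voom weights on the recovered reads 0 members were called, and the adjusted p of *Tmc6* was 0.052. The 8 genes called between the fractions at 6 days included *Kit* (3.12, SE 0.12, limma adjusted p = 0.00012) and the meiosis-entry gene *Stra8* (3.08, SE 0.22, limma adjusted p = 0.0088). At 6 days 5 of the 15 Sertoli cell markers were also higher in KIT- cells without overlap and 0 in KIT+ cells, with sums of 23.4 to 34.5 RPKM in KIT- and 15.8 to 19.2 RPKM in KIT+ cells. Their part in the differences of the 4 genes was not tested.

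**Figure D2:**
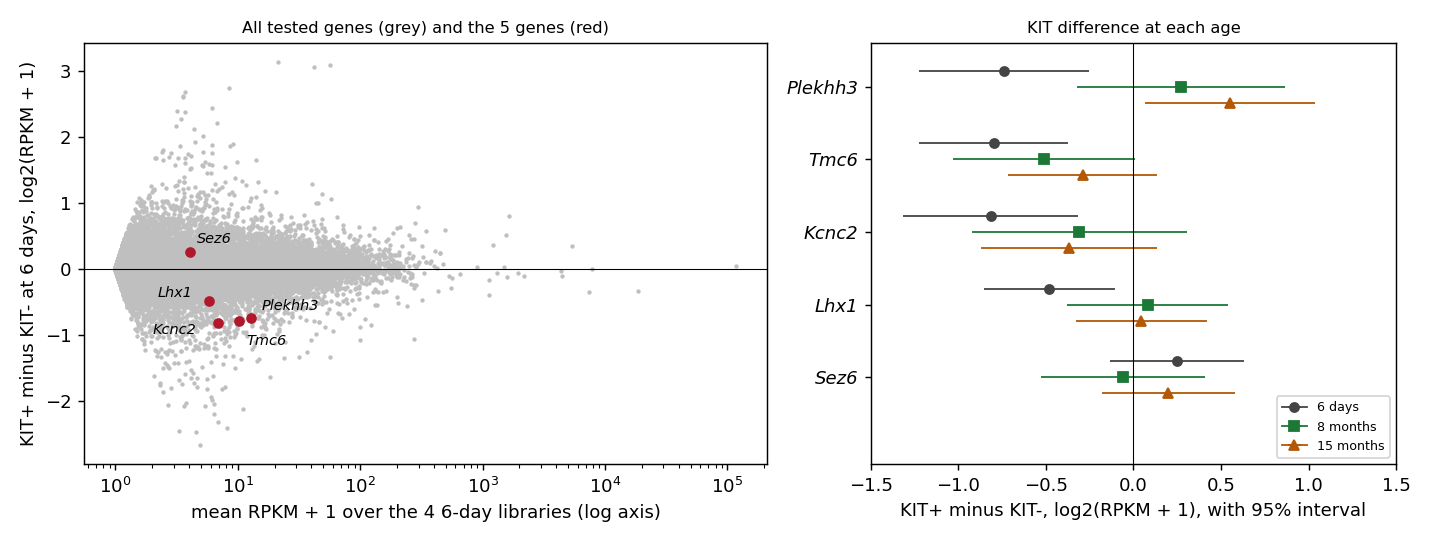
Left, difference between KIT+ and KIT- cells at 6 days in log2(RPKM + 1) against mean 6-day RPKM + 1 (log axis) for the 18412 genes tested (grey) with the 5 genes in red. Right, the same difference at 6 days, 8 months and 15 months for each of the 5 genes with its 95% interval; at 6 days 4 genes lie below 0 and *Sez6* above, and *Plekhh3* lies on opposite sides of 0 at 6 days and at both later ages.

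At the later ages the residual levels were compared in the same way. The rule keeps the later values low, and a call needs a 1.5-fold change of RPKM + 1. This was out of reach at 15 months for *Lhx1*, *Sez6* and *Kcnc2*, at no more than 0.158, 0.343 and 0.495 RPKM. That these genes were not called on this scale was thus fixed in advance. At 15 months 0 of the 5 genes were called between KIT+ and KIT- cells, against 18.3% of all genes tested, and 1 passed 0.05 before adjustment, as 36.1% of all genes did. This was *Plekhh3*, at 0.127 and 0.0665 RPKM in KIT- and 0.802 and 0.429 RPKM in KIT+ cells (difference 0.55, SE 0.21, limma adjusted p = 0.099). *Kcnc2* (-0.37, SE 0.22) and *Tmc6* (-0.29, SE 0.18) had lower values in KIT+ cells without overlap, as 30.9% of all genes did, and *Plekhh3* and *Sez6* (0.20, SE 0.16) higher ones, as 25.6% did. *Lhx1* overlapped between the fractions (0.04, SE 0.16). These calls depended on the setting, and the cause was not tested. With a pseudocount of 0.1, *Plekhh3* was called (1.83, limma adjusted p = 0.018), and with voom weights *Kcnc2* was called (-2.90, limma adjusted p = 0.031). The 15-month KIT+ libraries also differed from the KIT- libraries in macrophage markers, which summed to 14.2 and 46.2 RPKM against 1.49 and 3.42 RPKM. Sertoli cell markers went the other way, at 7.27 and 20.2 RPKM in KIT+ against 36.1 and 72.1 RPKM in KIT- cells. So did stromal markers, at 8.41 and 9.04 RPKM against 17.5 and 28.4 RPKM. Endothelial and erythroid sums were likewise higher in KIT- cells, and Leydig sums overlapped. The part of such cells in the values of the 5 genes was not tested.

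At 8 months, with a single KIT+ library, 0 of the 5 genes were called between the fractions, against 13.8% of all genes, and 0 passed 0.05 before adjustment, against 29.7% of all genes. The values of KIT+ minus KIT- cells were 0.27 (SE 0.26) for *Plekhh3*, -0.51 (SE 0.22) for *Tmc6*, -0.31 (SE 0.27) for *Kcnc2*, 0.08 (SE 0.20) for *Lhx1* and -0.06 (SE 0.20) for *Sez6*. Between 15 and 8 months in KIT- cells, 0 of the 5 genes were called, against 5.57% of all genes, and 0 passed 0.05 before adjustment, against 23.9%. These differences lay between -0.23 (*Plekhh3*, SE 0.21) and 0.06 (*Kcnc2*, SE 0.22), and the 95% intervals of all 5 genes stayed within -0.71 and 0.56. *Plekhh3* was at 0.388 and 0.185 RPKM in KIT- cells at 8 months and at 0.127 and 0.0665 RPKM at 15 months. The scale understates differences between such low levels, so these intervals do not show equal levels. *Lhx1* and *Sez6* did not exceed 0.195 and 0.198 RPKM at 8 months or in 15-month KIT- cells. A 1.5-fold change of RPKM + 1 was out of reach for them in both comparisons. The same held for *Plekhh3*, at no more than 0.388 RPKM, between 15 and 8 months in KIT- cells. That these genes were not called there was fixed in advance. With voom weights 0 members were called in either comparison.

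The rule keeps the 15-month levels low, which shrinks their KIT difference in log2(RPKM + 1). *Tmc6* had means of 0.955 RPKM in KIT- and 0.601 RPKM in KIT+ cells at 15 months, beside 11.98 and 6.42 RPKM at 6 days. A positive change with age on this scale can thus mirror a negative 6-day difference. Such a contrast does not test a change in the ratio of the fractions. The KIT difference at 15 months minus that at 6 days was tested on this scale. For *Plekhh3* it was 1.29 (SE 0.30, 95% interval 0.60 to 1.97), with a limma adjusted p of 0.058. The same value was 0.53 (SE 0.23) for *Lhx1*, 0.51 (SE 0.26) for *Tmc6*, 0.45 (SE 0.31) for *Kcnc2* and -0.05 (SE 0.23) for *Sez6*, and 0 of the 5 genes were called, against 3.86% of all genes tested, and 1, *Plekhh3*, passed 0.05 before adjustment, against 19.4%. The sign depended on the scale for *Kcnc2* (-0.50 with a pseudocount of 0.1 and -1.89 with voom weights) and for *Sez6* (0.60 and 1.58), so that no direction is given for them. The call for *Plekhh3* sat at the threshold. It passed when the genes were limited to those with a mean of at least 1 RPKM (limma adjusted p = 0.047) and without 1 of the 15-month KIT- libraries (limma adjusted p = 0.0499), and failed without any single other library.

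The chromosomal neighbours of the 5 genes were examined within 60 kb. *Tmc8*, which encodes the partner of TMC6, overlaps the start of *Tmc6* on the opposite strand, and had an age pattern of the same direction. It was at 2.15 and 2.57 RPKM in KIT- and 1.36 and 1.32 RPKM in KIT+ cells at 6 days and at no more than 0.298 RPKM later, a ratio of 6.19 with levels under the floor in KIT+ cells. The overlap covers 0.978% of the exon bases of *Tmc6*. The other neighbours of *Tmc6* with reads did not share this pattern, and *Tk1*, *Syngr2* and *Tnrc6c* had ratios of 1.44, 0.781 and 0.507.

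*Plekhh3* lies between *Tubg2*, a gamma-tubulin gene, and *Cntnap1*, which encodes a neuronal membrane protein and overlaps the start of *Plekhh3* on the opposite strand. *Tubg2* was at 7.92 and 9.00 RPKM in KIT- and 4.51 and 5.19 RPKM in KIT+ cells at 6 days, and its 6-day mean was 3.21 times its highest later value of 2.07 RPKM. *Cntnap1* was at 0.641 and 0.503 RPKM in KIT- and 0.186 and 0.127 RPKM in KIT+ cells at 6 days and at most 0.0556 RPKM later. All 3 genes had higher levels in both 6-day KIT- libraries than in both 6-day KIT+ libraries, as 20.3% of all genes tested did. The exons of *Cntnap1* share 6.5% of the exon bases of *Plekhh3*, and since the use of strand in counting is not given in the sources used here, reads in the shared bases of these gene pairs cannot be told apart. Further along, *Ezh1*, *Tubg1* and *Fam134c* had ratios of 0.786, 0.777 and 0.709. Of the neighbours of *Lhx1*, *Sez6* and *Kcnc2*, 0 had a ratio over 4, and the genes nearest to them on the same strand, *Aatf*, *Phf12* and *Caps2*, had ratios of 0.633, 0.716 and 0.934.

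**Figure D3:**
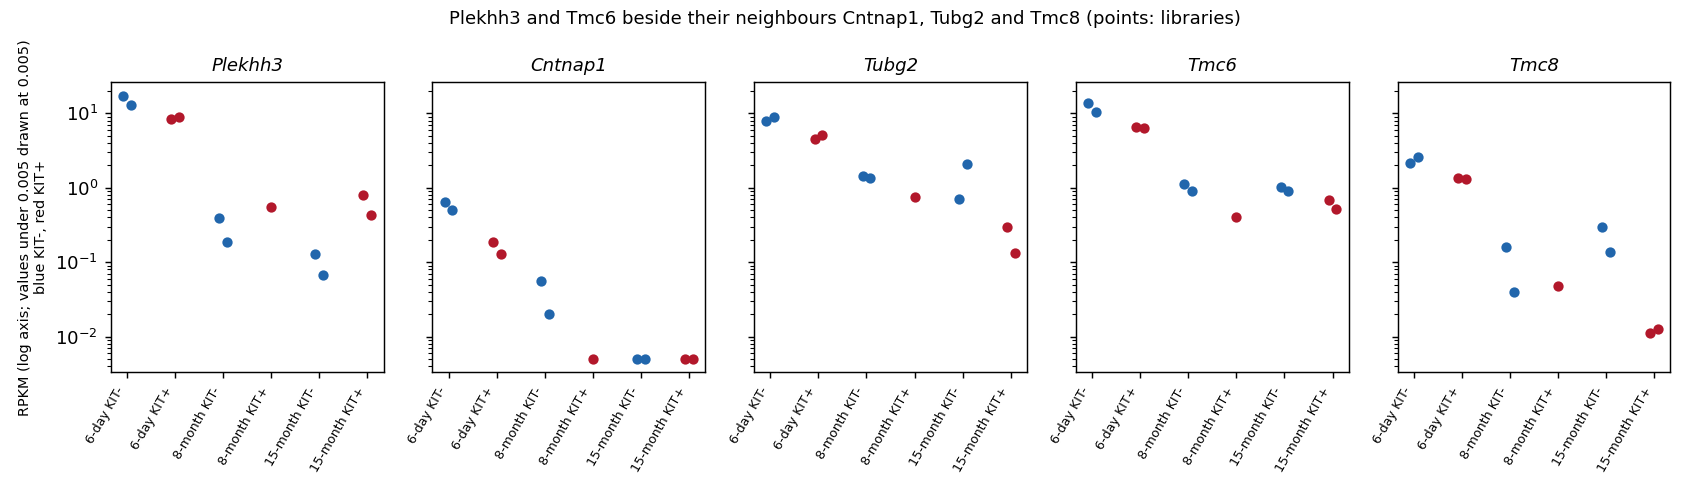
RPKM in each library on a log axis for *Plekhh3* and its neighbours *Cntnap1* and *Tubg2* and for *Tmc6* and its neighbour *Tmc8*, KIT- libraries in blue and KIT+ libraries in red, with values under 0.005 RPKM drawn at 0.005. *Tmc8* is above 1.3 RPKM in every 6-day library and at most 0.298 RPKM later, and *Tubg2* keeps more of its level, up to 2.07 RPKM.

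Other members of the same gene families were mostly low at every age or did not follow the pattern. *Plekhh1* was at 16.2 to 20.3 RPKM at 6 days and remained at 7.71 to 15.4 RPKM later, and *Plekhh2* was lower at 6 days (0.628 to 0.807 RPKM) than in KIT- cells later (1.58 to 4.40 RPKM). *Tmc7* was level over age, at 4.02 to 5.23 RPKM at 6 days and 4.55 to 6.19 RPKM in later KIT- cells. The potassium channel genes *Kcnc1* and *Kcnc4* did not exceed 0.312 RPKM in any library. Of the LIM-homeobox genes, *Lhx2* reached 1.97 RPKM and *Lhx6* 2.24 RPKM at most, and *Lhx8* was at 0 in every library. *Sez6l* and *Sez6l2* did not exceed 0.226 and 0.859 RPKM.

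*Kcnc2* was also compared with a list of 140 potassium, sodium and calcium channel genes. Of these, 8 reached 2 RPKM in each 6-day library, with a median ratio of 0.601, and *Kcnc2* was the single channel gene with a ratio of at least 2.

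*Lhx1* belongs to a list of 55 genes of undifferentiated spermatogonia and prospermatogonia, and the list as a whole was not restricted to 6 days. Of its genes, 35 reached the floor at 6 days, and their median ratio of 0.701 was close to that of all genes at the floor (0.708). Among a list of 36 genes of FGF and GDNF signalling, 10 reached the floor, with a median ratio of 2.13, and 5 of the 10 had a ratio of at least 2. *Etv4* was at 30.1 and 20.6 RPKM in KIT- and 17.7 and 24.5 RPKM in KIT+ cells at 6 days, and at 1.15 to 3.14 RPKM later. *Etv5*, a related ETS factor required for stem cell maintenance, had a ratio of 5.70, and *Gfra1*, the GDNF co-receptor, 3.30. *Dusp6*, an ERK phosphatase, had a ratio of 2.93, and *Bcl6b*, another GDNF-responsive gene of the undifferentiated list, 3.10. *Ret*, the signalling receptor for GDNF, had a ratio of 1.33.

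The low later values of *Lhx1* follow from the rule, so its contrast with these genes in what remained later was fixed in advance. *Ret* was at 20.3 to 31.8 RPKM in later KIT- cells and at 1.86 to 2.37 RPKM in later KIT+ cells, and at 15 months its difference was -2.92 (SE 0.14, limma adjusted p = 6.28e-05). *Etv5* was likewise at 5.24 to 6.53 RPKM in later KIT- cells and at 0.822 to 1.16 RPKM in later KIT+ cells (-1.76 at 15 months, SE 0.16, limma adjusted p = 0.00044). *Lhx1* was below 0.2 RPKM in both fractions, where a call between them was out of reach. *Spry4*, of the FGF and GDNF list, was also low later. It was at 0.470 to 0.713 RPKM in later KIT- and 0.0426 to 0.144 RPKM in later KIT+ cells. At 6 days, 0 of the 53 tested genes of the undifferentiated list were called between KIT+ and KIT- cells by limma, 37 had values below 0 with a median of -0.25, and 19 passed 0.05 before adjustment, beside 47.8% below 0, a median of 0.00 and 10.4% over all genes tested. The lists were written with earlier results of these data known.

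**Figure D4:**
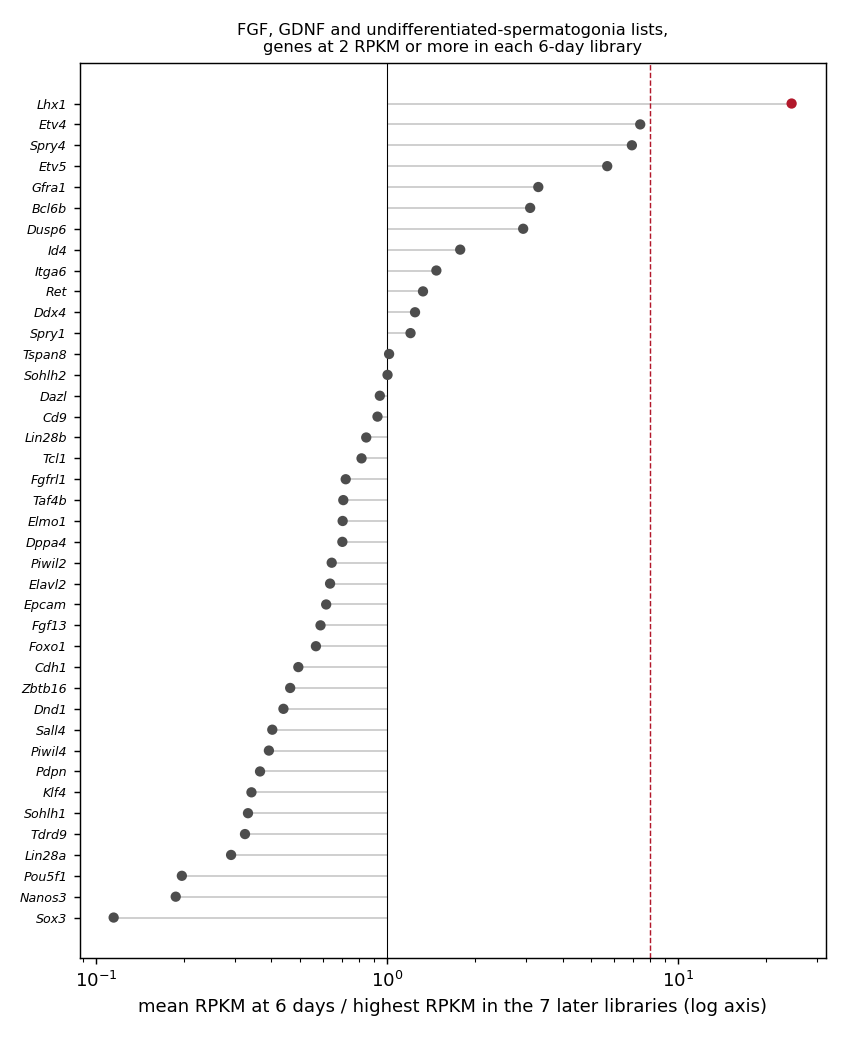
Ratio of the mean RPKM at 6 days to the highest RPKM in the 7 later libraries (log axis) for the genes of the FGF and GDNF list and of the undifferentiated spermatogonia list that reached 2 RPKM in each 6-day library, with *Lhx1* in red, a solid line at 1 and a dashed line at the threshold of 8. *Lhx1* is the 1 gene past the threshold, followed by *Etv4* (7.40), *Spry4* (6.93) and *Etv5* (5.70), and most of the genes lie below 1. The ratio sets a mean against a maximum, so a gene that is level over age can lie below 1.

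The same KIT comparison at 6 days was read for the genes just under the threshold. Their choice also used the 6-day values of both fractions. Of the 25 genes with a ratio of 4 to under 8, 0 were called by limma between KIT+ and KIT- cells, and 11 passed 0.05 before adjustment, against 10.4% of all genes tested. Their differences had a median of -0.41, and 24 lay below 0, against 47.8% of all genes. Without overlap 18 were lower in KIT+ cells and 0 higher, against 20.3% and 21.6% of all genes. With the 5 genes included, 28 of 30 lay below 0 and *Sez6* was the 1 gene with higher values in both KIT+ libraries. These included *Chrna4*, a nicotinic receptor subunit gene, at 21.5 and 21.2 RPKM in KIT- and 13.1 and 12.3 RPKM in KIT+ cells at 6 days and at 0.308 to 2.48 RPKM later.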

How the data were processed

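RNA-Seq values of 11 libraries of sorted Oct4-GFP+ spermatogonia were used, grouped by the age and KIT fraction in their labels. The authors deposited 1 table of RPKM per library. According to the paper's methods, reads were trimmed with Trimmomatic, mapped to mm9 and counted on Ensembl genes with featureCounts, whereas the submitters' processing notes name Trim Galore and RSEM. TopHat is named for the separate assembly of lncRNAs, and the aligner behind these gene values, the tool for RPKM and the use of strand are not given in the sources used here. RPKM corrects for depth and exon length but not for a few abundant genes that take a large share of the reads.

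Identifiers were joined to GENCODE M1 (mm9), which held 37205 of 37991. RPKM multiplied by exon length and library total gave reads within 0.05 of a whole number for 98.1% to 98.3% of the values, and the library totals are the depth. Genes with at least 10 reads in at least 2 libraries (18412) were tested with limma 3.58.1 (R 4.3.3) on log2(RPKM + 1), with all 11 libraries and 6 groups in 1 fit and a mean-variance trend. Fold changes are on that scale, which understates low genes. Genes were called at a Benjamini-Hochberg adjusted p of 0.05 with a change of 1.5-fold or more. The lone 8-month KIT+ library is assumed to vary like the other groups. Only the limma step was tried on simulated reads, with changes in the 6-day KIT+ libraries that were larger than those of the members. Named were the members, *Kit* and *Pou5f1*, the 3 genes on each side of the ratio threshold, and list, family and neighbour genes; *Amh*, *Chrna4*, *Nefm*, *Elfn1*, *Upf3b*, *Stra8* and the non-coding genes were named after their values were seen. The members and lists were chosen with earlier results of these data known. Promoter windows came from RefSeq. Python 3.11.15, numpy 2.4.6, pandas 2.3.3 and matplotlib 3.10.9 were used. Alternatives were other thresholds, scalings, filters, pseudocounts and weights, the replicate number as a block, and leaving out each library.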

Additional observations from a re-analysis of the deposited data

Results flagged for a closer look

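*Plekhh3* was marked for a closer look because its KIT difference had opposite signs at 2 ages. Both KIT- libraries lay above both KIT+ libraries at 6 days, and both lay below them at 15 months. The test of the difference between the ages gave 1.29 in log2(RPKM + 1) (SE 0.30) and did not pass after adjustment (limma adjusted p = 0.058). At 15 months the levels rested on 18 and 8 reads in KIT- and 170 and 118 reads in KIT+ cells.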

How the results depend on the processing

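The number of genes chosen was 30 at a ratio of 4, 1 (*Lhx1*) at a ratio of 16, 2 (*Plekhh3* and *Tmc6*) at a floor of 5 RPKM, 7 at a floor of 1 RPKM and 9 with median-of-ratios factors. Leaving out 1 library gave 4 to 9 genes: 8 without 15-month KIT- replicate 1, 9 without 6-day KIT+ replicate 2, and 4, without *Tmc6*, when either 6-day KIT- library was left out. Omitting 6-day libraries was chosen after seeing the data, as was the comparison of KIT differences between ages. No member was called between the fractions at 6 days by limma under any alternative, while 0 to 74 of all genes were (8 as reported), 0 with the replicate block or the 6-day libraries alone and 74 with voom weights. With the replicate block the adjusted p of *Kit* at 6 days was 0.071. Same-numbered libraries deviated with r = 0.05 at 6 days and -0.06 at 15 months, so the numbers were not shown to pair the libraries. At 15 months 1 member was called with a pseudocount of 0.1 and 1 with voom weights, and for the difference between ages 1 with a mean of at least 1 RPKM; leaving out 1 library gave 0 to 1. The signs of some uncalled differences turned, and the cause was not tested. *Lhx1* at 15 months ranged from -0.036 to 0.12 over the libraries left out (-0.036 without KIT- replicate 1, -0.027 without KIT+ replicate 1). Between 15 and 8 months, *Tmc6* ranged from -0.12 to 0.043 (0.043 without 8-month KIT- replicate 1, 0.0080 without 15-month KIT- replicate 2), *Kcnc2* from -0.13 (without 8-month KIT- replicate 1) to 0.25 and *Lhx1* from -0.16 to 0.00051 (without 15-month KIT- replicate 1). For the difference between ages, *Kcnc2* was at -0.50 and *Sez6* at 0.60 with a pseudocount of 0.1, and at -1.89 and 1.58 with voom weights. *Sez6* ranged from -0.19 to 0.092 when 1 library was left out: 0.092 without 6-day KIT- replicate 2, 0.0092 without 6-day KIT+ replicate 2, 0.02 without 15-month KIT- replicate 2 and 0.06 without 15-month KIT+ replicate 1. Few reads limit the later levels, down to 2 for *Lhx1* in 1 library.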

Other observations

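A pair of genes met the ratio of 8 and missed the floor of 2 RPKM in a 6-day KIT+ library. *Nefm*, a neurofilament subunit gene, was at 4.71 and 3.87 RPKM in KIT- and 2.07 and 1.90 RPKM in KIT+ cells at 6 days, with a ratio of 12.5 to the highest later value. *Elfn1*, which encodes a synaptic membrane protein, was at 3.09 and 3.99 RPKM in KIT- and 2.74 and 1.46 RPKM in KIT+ cells, with a ratio of 8.68. In both genes the lowest 6-day value was in a KIT+ library.

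Among genes that do not encode proteins, 2 met both thresholds. The lincRNA *Gm11019* was at 6.31 and 8.25 RPKM in KIT- and 4.57 and 4.40 RPKM in KIT+ cells at 6 days and at no more than 0.363 RPKM later, a ratio of 16.2. The row of *Mir290* (ENSMUSG00000077815), a microRNA of a cluster known from embryonic stem cells, was at 18.9 and 8.43 RPKM in KIT- and 12.2 and 9.97 RPKM in KIT+ cells at 6 days, at 0.985 and 1.45 RPKM in 8-month KIT- cells and at 0 in the other 5 later libraries. These libraries were made from rRNA-depleted RNA, and the *Mir290* row counts reads on its annotated exon, not the mature microRNA. This exon has 83 bases, and its levels rested on few reads. There were 45 and 18 reads in KIT- and 38 and 21 reads in KIT+ cells at 6 days. The 8-month KIT- libraries had 1 and 2 reads.

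Of the 25 genes with ratios of 4 to under 8, the X-linked nonsense-mediated decay gene *Upf3b* was at 16.9 and 12.7 RPKM in KIT- and 5.42 and 8.31 RPKM in KIT+ cells at 6 days and at 0.234 to 1.79 RPKM later, and would join the 5 genes without 15-month KIT- replicate 1.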
